A study of Mus musculus with 15 samples.

Results

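The receptors for sphingosine-1-phosphate (S1p) and lysophosphatidic acid (LPA) were followed in RNA-sequencing libraries of the embryonic mouse pancreas. The genes were chosen by name and comprised S1pr1, S1pr2, S1pr3 and S1pr4, which bind S1p, and Lpar1, Lpar2, Lpar4 and Lpar6, which bind LPA. They made up 8 of the 25292 genes in the count table, and all 8 carried enough reads to be tested, as did 16245 genes in all. The 3 other receptors of both families, S1pr5, Lpar3 and Lpar5, were not on the list and had too few reads to be tested. The data comprised 15 libraries in 5 groups of 3, all from C57/Bl6J mice according to the labels. Whole pancreata taken at 14.5 days post coitum (dpc) were wild type (wt) or labelled S1pr2 null. By the methods of the study, the null line carried the S1pr2 tm1Rlp allele, in which a Neo cassette disrupts exon 1, and neither group was treated. Wild-type explants, dissected as dorsal buds at 14.5 dpc, were cultured at the air-liquid interface, on a filter, for 2 days. They received standard medium (control), JTE013 at 15 μM (JTE), which antagonises S1pr2, or the same dose of JTE013 plus CTGF, connective tissue growth factor, at 50 ng/ml (JTE + CTGF). Each library was a pool of up to 3 pups or explants.

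S1p and LPA are small lysophospholipids that act outside the cell through G protein-coupled receptors. S1pr1 couples to Gi, whereas S1pr2 and S1pr3 also couple to Gq and G12/13, the latter leading to RhoA. Lpar1 and Lpar2 belong to the same structural family as the S1p receptors, and Lpar4 and Lpar6 to the purinergic branch. S1pr1 is best known from endothelium and lymphocytes, S1pr4 from leukocytes, and S1pr3 and Lpar1 from mesenchymal, mural and other cell types.

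The libraries held between 11402804 and 13828737 counted reads. All 10 pancreatic markers examined, among them Pdx1, Ptf1a and Cpa1, were detected in every library, the lowest being Onecut1 with 99 reads in 1 library. No pair of libraries within a group agreed within sampling noise, so none was a copy. The library JTE 3 stood apart, with a chi-square per gene of 17.2 against JTE 1 and 23.2 against JTE 2, where JTE 1 and JTE 2 gave 3.01 and pairs in the other groups 2.34 to 10.2. The libraries are bulk tissue, so fewer cells of a type and less RNA per cell cannot be told apart. Levels are given as RPKM, reads scaled to exon length and effective library size, and can be compared between genes. Differences are log2 fold changes ± SE from edgeR's quasi-likelihood test, called at an adjusted p below 0.05 over all genes tested.

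In the wt and S1pr2 null libraries S1pr2, S1pr3 and Lpar1 were the 3 most abundant of the receptors, and these 3 were also higher in the libraries labelled S1pr2 null. The region around each start site is therefore shown, 250 bases before it and 50 after it, from RefSeq on GRCm38.p6. The S1pr2 window is chr9:20976744-20977043 on the minus strand. That of S1pr3 is chr13:51408368-51408667 on the plus strand. That of Lpar1, the first of 3 listed start sites, is chr4:58553442-58553741 on the minus strand. It does not hold the first base of the counted gene, whereas the windows of S1pr2 and S1pr3 do. Capitals mark the letters of a GC box.
S1pr2: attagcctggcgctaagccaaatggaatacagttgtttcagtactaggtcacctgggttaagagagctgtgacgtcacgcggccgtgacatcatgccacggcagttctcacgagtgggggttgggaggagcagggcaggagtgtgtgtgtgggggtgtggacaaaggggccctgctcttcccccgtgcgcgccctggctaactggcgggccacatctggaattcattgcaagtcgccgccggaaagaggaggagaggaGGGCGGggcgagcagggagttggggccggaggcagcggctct
S1pr3: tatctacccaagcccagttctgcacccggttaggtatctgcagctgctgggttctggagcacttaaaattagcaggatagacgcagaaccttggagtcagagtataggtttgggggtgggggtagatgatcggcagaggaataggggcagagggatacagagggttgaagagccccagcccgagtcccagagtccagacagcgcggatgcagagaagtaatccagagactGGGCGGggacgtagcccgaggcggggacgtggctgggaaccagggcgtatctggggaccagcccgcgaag
Lpar1: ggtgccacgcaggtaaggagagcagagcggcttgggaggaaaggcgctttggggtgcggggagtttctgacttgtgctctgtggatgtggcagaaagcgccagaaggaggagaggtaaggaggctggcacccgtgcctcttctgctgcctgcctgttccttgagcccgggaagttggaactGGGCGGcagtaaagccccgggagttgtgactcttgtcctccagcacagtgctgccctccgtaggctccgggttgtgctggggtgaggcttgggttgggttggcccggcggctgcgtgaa

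All 3 windows held the letters GGGCGG, starting at position 8 from the start site in S1pr2, at -20 in S1pr3 and at -69 in Lpar1. Of all 32851 promoter windows of that length 35.7% held these letters on either strand, so the match is common. The windows had 62.0%, 59.0% and 63.0% G or C, beside a median of 52.7% over all windows, and 18, 14 and 14 CpG dinucleotides beside a median of 7. None of them held the TEAD motif GGAATG, found in 14.7% of windows, the AP-1 motif TGANTCA, found in 7.81%, or TATAAA, found in 13.6%. The Lpar1 values depend on the start site chosen. Window 2 of Lpar1 had 71.7% G or C, 37 CpG dinucleotides and a GC box on the opposite strand at -80. Window 3 had 43.7% G or C, 3 CpG dinucleotides and none of the 4 motifs. Neither holds the first base of the counted gene. Among the other receptors, Lpar2 held an AP-1 match at -221 and a GC box at -52. Lpar4 held a GC box at -67 and TATAAA at -203, Lpar6 held a TEAD match at -23, and S1pr4 held none of the 4 motifs. The table matched 7 of the 8 receptors, and S1pr1 had no entry.

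S1pr2, the receptor the study targeted, was not lower in the libraries labelled S1pr2 null. Its level was 21.9, 21.6 and 21.6 RPKM in the 3 wt libraries and 41.3, 35.8 and 38.3 RPKM in the 3 libraries labelled S1pr2 null. Every library labelled null lay above every wt library. The label refers to an allele with a cassette in exon 1, so a higher count per gene does not by itself contradict it. The difference was 0.83 ± 0.07 (adjusted p = 4.5e-07), 1.77-fold higher. S1pr2 spans chr9:20965952-20976793 on the minus strand, in 2 exon intervals of 2619 and 196 bases, and a count per gene does not tell from which exon the reads came, nor whether protein was made. Therefore all results below for this genotype rest on the label.

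The genes beside S1pr2 did not share its direction. Of 19 genes within 250 kb, 16 were tested, 0 were higher and 5 were lower in the libraries labelled S1pr2 null, with a median of -0.14, where 12.6% of all genes tested were higher and 13.3% lower. On the side of lower coordinates Dnmt1, the maintenance DNA methyltransferase, differed by -0.03 ± 0.06, and Eif3g, a translation initiation factor subunit, fell by 0.19 ± 0.06 (adjusted p = 0.0258). On the other side Mrpl4 differed by 0.01 ± 0.07 and Icam1, an adhesion receptor, by -0.10 ± 0.18, neither passing the test. Col5a3, a fibrillar collagen gene 151 kb away that was chosen after its values were seen, had 67.7, 53.6 and 53.0 normalised reads there against 242, 323 and 256 in wt. It differed by -2.24 ± 0.17 (adjusted p = 1.6e-07), and its groups did not overlap.

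**Figure D1:**
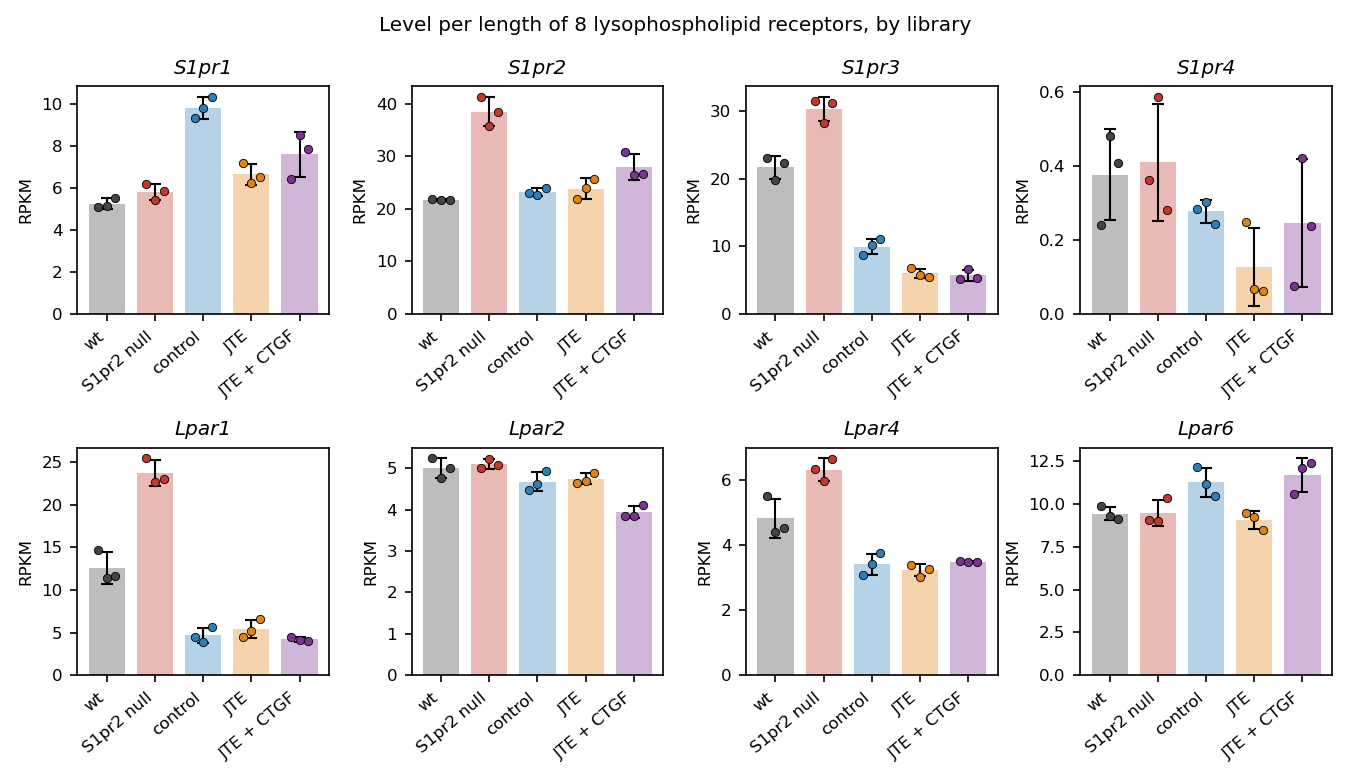
Level of each receptor in RPKM (vertical axis, starting at 0, with its own scale in each panel) in the 5 groups. Points are single libraries, bars the mean of 3 libraries and error bars the SD. S1pr2 was highest in the libraries labelled S1pr2 null, and S1pr3 and Lpar1 were lower in every cultured explant library than in every fresh pancreas.

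Of the 8 receptors, 4 were higher and 0 lower under the null label. Of all genes tested 25.8% passed the test in this comparison, 12.6% higher and 13.3% lower. Besides S1pr2, the genes that rose were S1pr3, Lpar1 and Lpar4. S1pr3 stood at 23.0, 19.7 and 22.3 RPKM in wt and at 31.5, 28.2 and 31.2 RPKM under the null label, a difference of 0.48 ± 0.09 (adjusted p = 0.000849). Lpar1, the most widely expressed LPA receptor, stood at 14.7, 11.4 and 11.7 RPKM in wt and at 25.4, 22.7 and 23.0 RPKM under the null label. Its difference, 0.91 ± 0.12 (adjusted p = 3.49e-05) or 1.88-fold, was the largest among the 8, and the groups of both genes did not overlap. Lpar4 rose from 5.52, 4.41 and 4.52 RPKM to 6.35, 5.96 and 6.65 RPKM, by 0.39 ± 0.09 (adjusted p = 0.00485), again without overlap.

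The other receptors did not pass the test. S1pr1 stood at 5.07, 5.14 and 5.53 RPKM in wt and at 6.17, 5.42 and 5.85 RPKM under the null label, so its groups overlapped (0.15 ± 0.10, adjusted p = 0.304). Lpar2 differed by 0.03 ± 0.06 (adjusted p = 0.787) and Lpar6 by 0.01 ± 0.08 (adjusted p = 0.957). S1pr4, with 8, 15 and 13 reads in wt and 11, 19 and 10 reads under the null label, was too shallow for a small difference to be detectable.

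Markers of other cell types moved in the same comparison, and their part in the receptor differences was not tested. All 10 epithelial markers fell (median -0.52 beside -0.01 for all genes), and their summed level was 697 to 738 RPKM against 989 to 1082 RPKM in wt. Of 12 mesenchymal markers 6 rose and 4 fell, with a median of 0.25. Pdgfra rose by 0.89 ± 0.08 and Nkx3-2, a factor of splanchnic mesenchyme, by 1.16 ± 0.15, whereas Dcn fell by 0.69 ± 0.09. The summed mesenchymal level, in which genes of high level weigh most, differed in sign from the median, with 1477 to 1705 RPKM under the null label and 1730 to 1743 RPKM in wt. Of 10 mural and smooth muscle markers 3 rose and 2 fell (170 to 174 against 147 to 159 RPKM), and the 3 pericyte-related genes with the largest rise were Kcnj8 (0.63 ± 0.10), Notch3 (0.58 ± 0.09) and Abcc9 (0.58 ± 0.08). Of 12 endothelial markers 3 rose and 0 fell (165 to 166 against 151 to 156 RPKM). Nearly equal sums were found for leukocyte markers (70.6 to 72.3 against 66.3 to 71.3 RPKM), of which 1 of 11 tested fell. Of 10 pancreatic markers 3 fell and 0 rose (776 to 817 against 1366 to 1897 RPKM), namely the acinar enzyme Cpa1 (by 1.32 ± 0.19), the acinar factor Ptf1a (by 0.89 ± 0.20) and Gata4 (by 0.84 ± 0.11). Of 8 nerve and glia markers 2 fell and 0 rose (28.9 to 33.1 against 38.9 to 40.7 RPKM).

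None of these markers was at 3 reads or fewer in every library.

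**Figure D2:**
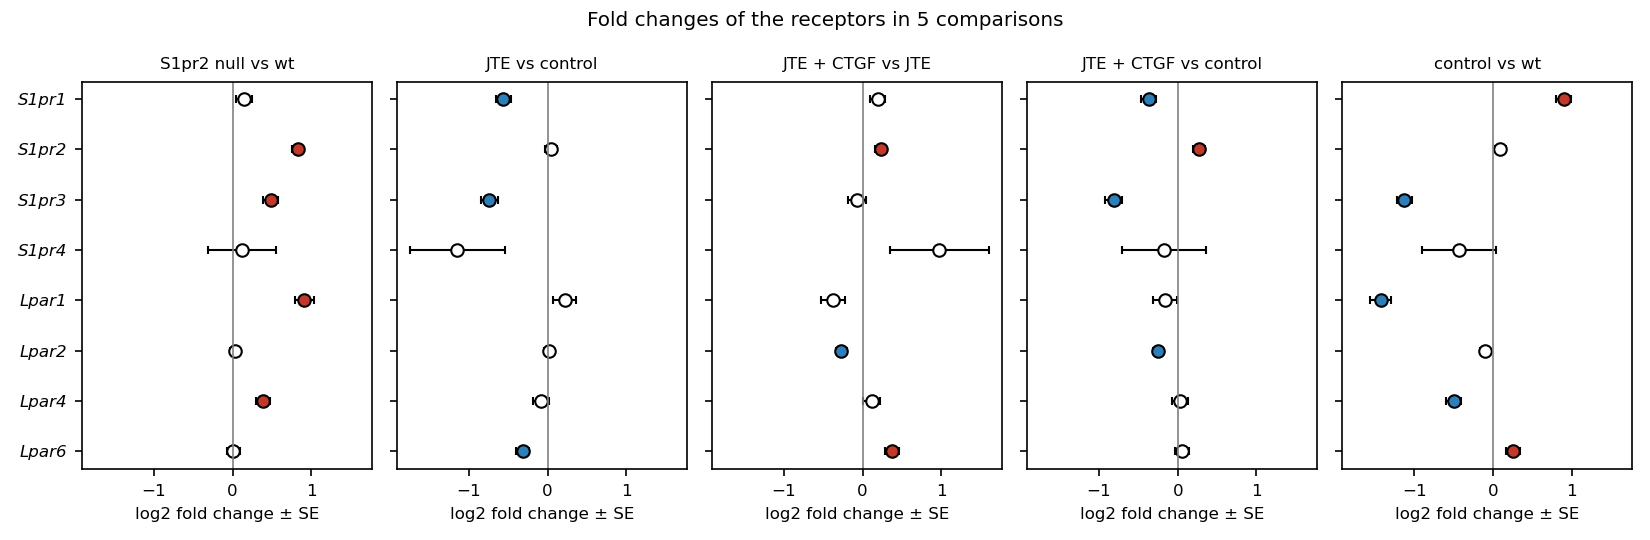
Log2 fold change of each receptor (horizontal axis, error bars SE) in 5 comparisons. Red points rose and blue points fell at an adjusted p below 0.05, and open points did not pass. S1pr3 and Lpar1 rose in the libraries labelled S1pr2 null and fell in control explants against wt, and S1pr4 has the widest errors.

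S1pr2 itself did not pass the test in explants exposed to JTE013. It stood at 22.9, 22.6 and 24.0 RPKM in control explants and at 21.8, 23.9 and 25.7 RPKM in JTE explants, with overlapping groups (0.04 ± 0.07, adjusted p = 0.655). Of the 8 receptors 0 rose and 3 fell, namely S1pr1, S1pr3 and Lpar6, where 52.2% of all genes passed the test, 25.9% higher and 26.2% lower. S1pr1 stood at 9.30, 9.79 and 10.3 RPKM in control and at 7.18, 6.21 and 6.54 RPKM in JTE explants, a fall of 0.56 ± 0.09 (adjusted p = 9.44e-05). S1pr3 stood at 8.72, 10.1 and 11.01 RPKM in control and at 6.71, 5.68 and 5.49 RPKM with JTE013, and fell by 0.74 ± 0.11 (adjusted p = 2.07e-05). For both receptors every JTE library lay below every control library. Lpar6, which signals mainly through G12/13, went from 12.1, 11.1 and 10.5 RPKM to 9.43, 9.23 and 8.44 RPKM, a smaller fall of 0.32 ± 0.09 (adjusted p = 0.00491) that also left no overlap. Without JTE 3, the library that stood apart, the differences were -0.55 for S1pr1 (adjusted p = 0.000427), -0.69 for S1pr3 (adjusted p = 0.000114) and -0.27 for Lpar6 (adjusted p = 0.0267).

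Lpar1 behaved less uniformly, with 4.44, 3.94 and 5.69 RPKM in control and 4.48, 5.24 and 6.55 RPKM in JTE explants. Its groups overlapped and the difference of 0.22 ± 0.15 did not pass (adjusted p = 0.229), and it moved both ways when 1 library was left out. Without control 3 it was 0.38 and passed (adjusted p = 0.0472), whereas it was 0.10 (adjusted p = 0.611) without control 2 and 0.05 (adjusted p = 0.787) without JTE 3. Lpar2 (0.02 ± 0.06) and Lpar4 (-0.08 ± 0.10) did not pass either. S1pr4 had 8, 9 and 7 reads in control and 7, 2 and 2 reads in JTE explants. Its difference of -1.15 ± 0.60 did not pass (adjusted p = 0.121) but did so without the library JTE 1 (-2.02, adjusted p = 0.0289), at read numbers close to the counting floor of 3 reads.

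Markers of endothelium, in which S1pr1 is best known, and of other cell types also differed between these groups, and their part in the falls of S1pr1, S1pr3 and Lpar6 was not tested. Of 12 endothelial markers 8 fell and 1 rose (median -0.37 beside 0.0 for all genes), and the summed level was 128 to 145 RPKM in JTE against 160 to 192 RPKM in control explants. Tek fell by 1.59 ± 0.21, Flt1 by 1.46 ± 0.13 and Esam by 0.68 ± 0.08. All 11 leukocyte markers tested fell (median -1.47), with sums of 63.6 to 77.9 against 136 to 163 RPKM, and Csf1r, the receptor of macrophages, fell by 3.14 ± 0.16. Of 10 mural and smooth muscle markers 6 fell and 1 rose (134 to 147 against 197 to 212 RPKM). Of 10 epithelial markers 6 fell and 0 rose (999 to 1269 against 1569 to 1850 RPKM). Of 12 mesenchymal markers 3 rose and 4 fell, with overlapping sums (1757 to 2094 against 1757 to 1869 RPKM). Of 10 pancreatic markers 1 rose and 4 fell (3765 to 7388 against 3627 to 4878 RPKM). Cpa1, with 10652 to 152152 reads over the libraries where Sox9 followed with at most 3249, weighs most in this sum. Of 8 nerve and glia markers 1 rose and 1 fell (35.9 to 37.2 against 45.8 to 49.7 RPKM).

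Addition of CTGF to JTE013 was accompanied by differences in both directions. Against JTE alone 2 of the 8 receptors rose and 1 fell, where 30.4% of all genes passed, 13.6% higher and 16.8% lower. S1pr2 stood at 30.7, 26.4 and 26.6 RPKM with CTGF, all above the 3 JTE libraries, a difference of 0.23 ± 0.07 (adjusted p = 0.0234). This call was lost when any 1 of the libraries JTE 1, JTE 2 or JTE + CTGF 1 was left out (adjusted p up to 0.126). Lpar6 stood at 10.6, 12.1 and 12.4 RPKM, above every JTE library, and rose by 0.37 ± 0.09 (adjusted p = 0.00365). Lpar2 was the only receptor of the 8 that fell in this comparison, to 3.86, 3.85 and 4.11 RPKM from 4.64, 4.70 and 4.89 RPKM with JTE013 alone, by 0.27 ± 0.07 (adjusted p = 0.0056). Without JTE 3 the differences were 0.32 for S1pr2 (adjusted p = 0.0031), 0.36 for Lpar6 (adjusted p = 0.00936) and -0.21 for Lpar2 (adjusted p = 0.0481).

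S1pr1 stood at 6.44, 8.497 and 7.82 RPKM with CTGF and overlapped the JTE group (0.19 ± 0.10, adjusted p = 0.15), and the difference passed without the library JTE + CTGF 1 (0.30, adjusted p = 0.0218) but was 0.10 (adjusted p = 0.512) without JTE + CTGF 2. S1pr3 differed by -0.07 ± 0.11 and Lpar4 by 0.11 ± 0.10. Lpar1, at 4.53, 4.09 and 3.98 RPKM, differed from JTE by -0.37 ± 0.15 without passing (adjusted p = 0.0705). It passed, at an adjusted p down to 0.0261, in 3 of 15 fits that left out 1 library, namely those without wt 1, control 3 or JTE 1, whereas without JTE 3 it was -0.18 (adjusted p = 0.409). Over the marker lists, 3 endothelial markers rose and 1 fell, 0 mural markers rose and 2 fell, and 1 leukocyte marker rose and 0 fell. Of mesenchymal markers 2 rose and 2 fell, of epithelial markers 1 rose and 2 fell, and of pancreatic markers 0 rose and 3 fell. Among these, Onecut1 fell by 1.59 ± 0.13, Nkx3-2 fell by 0.62 ± 0.18 and the mesenchymal marker Lum rose by 0.50 ± 0.09. The summed levels of all these lists overlapped between both groups. For nerve and glia 0 markers rose and 0 fell, with sums of 33.4 to 35.7 RPKM with CTGF against 35.9 to 37.2 RPKM. The part of these markers was not tested.

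The comparison of JTE + CTGF with control shares its control libraries with that of JTE, so the values are given side by side. Of the 8 receptors 1 rose and 3 fell, where 61.1% of all genes passed, 28.1% higher and 33.0% lower. S1pr3 fell by 0.81 ± 0.11 with both agents (adjusted p = 6.75e-06) and by 0.74 ± 0.11 with JTE013 alone. For S1pr1 the falls were 0.37 ± 0.09 (adjusted p = 0.00269) and 0.56 ± 0.09. S1pr2 rose by 0.27 ± 0.07 (adjusted p = 0.0038) with both agents and differed by 0.04 ± 0.07 with JTE013 alone, whereas Lpar2 fell by 0.25 ± 0.07 (adjusted p = 0.00401) and differed by 0.02 ± 0.06. Lpar6 stood 0.05 ± 0.08 from control with both agents (adjusted p = 0.602).

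Markers of other cell types differed here too, and their part was not tested. With both agents 10 of 11 leukocyte markers tested fell and 0 rose (median -1.68, 62.3 to 82.1 against 136 to 163 RPKM). Of 10 mural and smooth muscle markers 8 fell and 0 rose (median -0.85, 122 to 141 against 197 to 212 RPKM). For endothelium 3 of 12 rose and 8 fell (132 to 154 against 160 to 192 RPKM), and for epithelium 1 of 10 rose and 6 fell (1140 to 1305 against 1569 to 1850 RPKM). Of 12 mesenchymal markers 2 rose and 3 fell, with a higher sum (1935 to 2062 against 1757 to 1869 RPKM). For pancreas 2 of 10 rose and 5 fell (6195 to 7134 against 3627 to 4878 RPKM, a sum in which Cpa1 weighs most). For nerve and glia 0 of 8 rose and 2 fell (33.4 to 35.7 against 45.8 to 49.7 RPKM).

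Explants after culture differed from fresh wt pancreata in 5 of the 8 receptors, 2 higher and 3 lower, where 57.8% of all genes passed, 28.5% higher and 29.3% lower. Culture, age and dissection changed together between these groups and cannot be told apart. Lpar1 fell by 1.42 ± 0.14 (adjusted p = 1.37e-07), to 2.68-fold below wt, and S1pr3 fell by 1.12 ± 0.10 (adjusted p = 4.14e-08), to 2.18-fold below. Lpar4 stood at 3.10, 3.40 and 3.74 RPKM in control and fell by 0.50 ± 0.10 (adjusted p = 0.000356). In contrast, S1pr1 rose by 0.90 ± 0.10 (adjusted p = 5.08e-07), 1.87-fold, and every control library lay above every wt library. Lpar6 rose by 0.25 ± 0.08 (adjusted p = 0.0159), a call lost without wt 3 or without control 1 (adjusted p up to 0.0856). S1pr2 (0.10 ± 0.07, adjusted p = 0.27) and Lpar2 (-0.10 ± 0.06, adjusted p = 0.201) did not pass. Scaling by total counts would move every gene by -0.14 in this comparison, so that the S1pr2 means became 22.4 RPKM in control and 23.2 RPKM in wt, the opposite order.

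Among the marker lists in this comparison, 7 of 11 leukocyte markers tested rose and 0 fell (136 to 163 RPKM in control against 66.3 to 71.3 in wt). For endothelium 5 of 12 rose and 6 fell (160 to 192 against 151 to 156 RPKM), and for mesenchyme 5 rose and 5 fell (1757 to 1869 against 1730 to 1743 RPKM). Of the epithelial markers 7 of 10 rose and 0 fell (1569 to 1850 against 989 to 1082 RPKM). For mural and smooth muscle 3 of 10 rose and 3 fell, with a higher sum in control (197 to 212 against 147 to 159 RPKM). For pancreas 3 of 10 rose and 4 fell (3627 to 4878 against 1366 to 1897 RPKM, a sum in which Cpa1 weighs most). For nerve and glia 2 of 8 rose and 2 fell (45.8 to 49.7 against 38.9 to 40.7 RPKM). The part of all these markers in the receptor differences was not tested.

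The study's own criterion also asked for a fold below 0.6 or above 1.6, a mean of 100 reads and an adjusted p of at most 0.1. S1pr2 and Lpar1 met it under the null label, where 3.00% of all genes did. S1pr3 met it with JTE013 (8.25% of all genes) and with both agents against control (11.8%), and 0 receptors did with CTGF against JTE (1.74%). In control against wt S1pr1, S1pr3 and Lpar1 met it, beside 12.1% of all genes.

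The JTE response was also set against the genotype difference in one contrast, JTE against control minus null label against wt. Of the 8 receptors 0 were higher and 6 lower, where 42.9% of all genes passed, 21.5% higher and 21.5% lower. The 2 that did not pass were S1pr4 and Lpar2. S1pr3 had the largest difference among those called, -1.22 ± 0.14 (adjusted p = 3.66e-06).

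The order of the receptors differed between fresh and cultured tissue. In wt pancreata S1pr2 (21.7 ± 0.17 RPKM, SD, n = 3) and S1pr3 (21.7 ± 1.71) shared the first place with overlapping libraries, followed by Lpar1 (12.6 ± 1.85), Lpar6 (9.42 ± 0.39), and S1pr1, Lpar2 and Lpar4 at 5.25, 5.003 and 4.82 RPKM, which overlapped in turn. Under the null label the first 3 places were held by S1pr2 (38.5 ± 2.76), S1pr3 (30.3 ± 1.80) and Lpar1 (23.7 ± 1.51) without overlap. In control explants S1pr2 (23.2 ± 0.75) stood alone above Lpar6 (11.3 ± 0.84), S1pr3 (9.95 ± 1.16) and S1pr1 (9.81 ± 0.51), of which each overlapped the next. In JTE explants S1pr2 (23.8 ± 1.98) was followed by Lpar6 (9.04 ± 0.52) and then by S1pr1, S1pr3, Lpar1 and Lpar2, from 6.64 down to 4.74 RPKM, each overlapping its neighbour. With CTGF the order began with S1pr2 (27.9 ± 2.44), Lpar6 (11.7 ± 0.98), S1pr1 (7.59 ± 1.05) and S1pr3 (5.67 ± 0.82), of which S1pr1 and S1pr3 overlapped. S1pr4 was last of the 8 everywhere, at no more than 0.586 RPKM in any library.

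The 3 remaining receptors of these families, S1pr5, Lpar3 and Lpar5, reached at most 5, 11 and 14 reads in any library and were not tested. S1pr5 had 0 reads in 6 libraries, in which 3 reads would correspond to between 0.0861 and 0.11 RPKM, a limit that covers counting error only.

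The make-up of the S1p receptor family differed between the groups. The S1pr2 share of the summed RPKM of the family was 44.3% ± 1.47 (SD, n = 3) in wt, 51.3% ± 0.74 under the null label, 53.7% ± 1.66 in control, 65.0% ± 3.97 in JTE and 67.3% ± 4.72 in JTE + CTGF explants. The differences between null label and wt (6.96 percentage points), JTE and control (11.4), JTE + CTGF and control (13.6) and control and wt (9.36) had no overlap between groups and gave p = 0.1 in a two-sided exact permutation test, the smallest p that 3 against 3 libraries allow. JTE + CTGF and JTE overlapped (p = 0.6, exact permutation). The ratio of S1pr2 to S1pr3 was 1.00 ± 0.08 in wt, 1.27 ± 0.04 under the null label, 2.35 ± 0.25 in control, 4.05 ± 0.74 in JTE and 5.01 ± 0.98 in JTE + CTGF explants. S1pr1 made up 10.7% of the family in wt and 22.7% in control explants.

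By RPKM the leading gene among LPA receptors changed. This order depends on exon length, 2468 bases for Lpar6 and 5837 for Lpar2. In reads, Lpar2 had 321, 337 and 385 in JTE explants and Lpar6 had 276, 280 and 281. The counts of Lpar6 are also uncertain for its overlap with Rb1, described below. Lpar1 made up 39.0% ± 1.84 of the family in wt, 52.7% ± 2.24 under the null label and 18.9% ± 2.85 in control explants, whereas Lpar6 made up 29.4% ± 1.65, 21.0% ± 1.61 and 45.7% ± 4.53. The summed RPKM of the S1p receptors was 49.0 ± 1.77 in wt, 75.02 ± 4.69 under the null label, 43.2 ± 2.19 in control, 36.6 ± 1.08 in JTE and 41.5 ± 1.35 in JTE + CTGF explants. For the LPA receptors these sums were 32.2 ± 3.16, 45.0 ± 1.49, 24.7 ± 1.00, 22.7 ± 0.60 and 23.5 ± 0.88 RPKM. The S1p family held 60.4% to 63.8% of both sums in every group. By RPKM the balance between the families thus varied little while their members exchanged places. Under the null label this share counts the S1pr2 reads, 38.5 of the 75.02 RPKM of the S1p family. Whether those reads stand for receptor cannot be told from counts, which also limits the S1pr2 share under the null label given above.

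**Figure D3:**
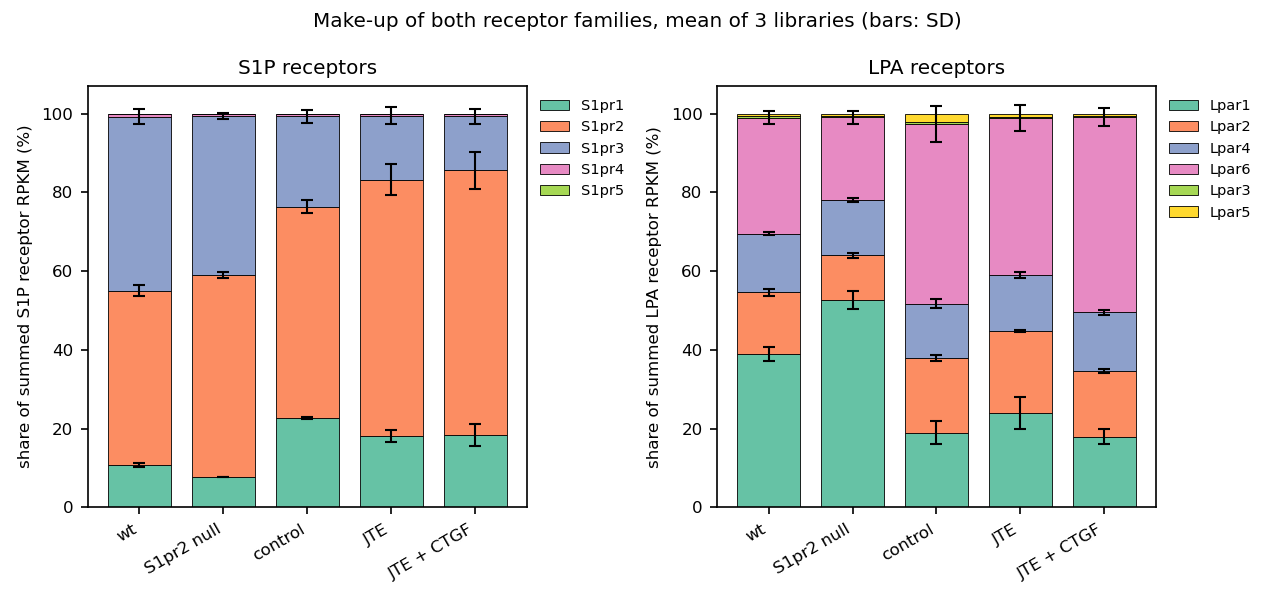
Share of each receptor in the summed RPKM of its family (vertical axis, percent, mean of 3 libraries per group, error bars SD, left S1p receptors, right LPA receptors). S1pr2 made up 44.3% in wt and 67.3% in JTE + CTGF explants. By this measure per length the leading LPA receptor was Lpar1 in fresh pancreata and Lpar6 in cultured explants.

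Whether any receptor tracked another was examined in 2 ways. Within groups, the deviations of single libraries from their group mean in log2 CPM were correlated over 15 libraries for all 28 pairs, with exact permutation of the libraries within groups. Of the pairs 5 had p below 0.05 and 1 passed after Benjamini-Hochberg adjustment, S1pr2 with Lpar1. Its Pearson r was 0.718 (exact permutation p = 0.000514, adjusted p = 0.0144) and Spearman's rho 0.764 (p = 0.000772, exact permutation). Without JTE 3 and JTE + CTGF 1, the 2 libraries farthest from the median of S1pr2, r was 0.654. The deviations were small, within ±0.3 for Lpar1 and less for S1pr2 on the log2 scale, and the points share the make-up of their library, whose part was not tested.

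The pair S1pr1 and S1pr3 had r = 0.74 (exact permutation p = 0.0171, adjusted p = 0.116), rho = 0.721 (exact permutation p = 0.0131) and r = 0.667 without JTE + CTGF 1 and JTE + CTGF 2, and did not pass the adjustment. S1pr4 ran against S1pr2 (r = -0.824, adjusted p = 0.11, exact permutation) and against Lpar1 (r = -0.622, adjusted p = 0.108, exact permutation) without passing, at 2 to 19 reads per library. The fifth pair was S1pr3 with Lpar4 (r = 0.606, adjusted p = 0.116, exact permutation).

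**Figure D4:**
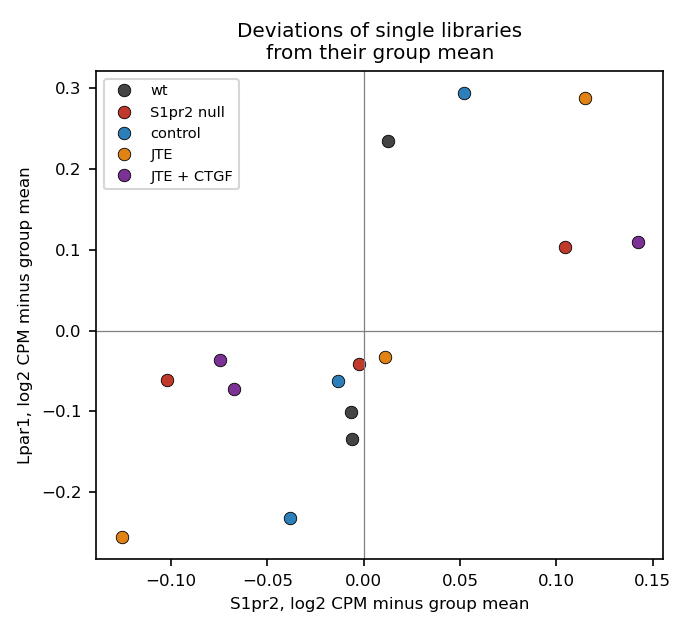
Deviation of each of the 15 libraries from its group mean in log2 CPM, S1pr2 on the horizontal and Lpar1 on the vertical axis, coloured by group. Libraries above their group mean in S1pr2 tended to lie above it in Lpar1, with Pearson r of 0.718.

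Across all 15 libraries, groups included, profiles were compared by the root mean square difference in log2 CPM after each gene was centred on its own mean, as a description with no test. S1pr3 and Lpar1 were the closest to each other among the more variable receptors, at 0.394, where S1pr3 itself varied by 0.984 and Lpar1 by 0.978. S1pr3 was the 111th nearest of 16244 genes to Lpar1, and Lpar1 the 277th nearest to S1pr3. S1pr1 and Lpar6 differed by 0.248, and Lpar6 was the 566th nearest gene to S1pr1. Thus no receptor was among the 2 nearest genes of another.

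The genes nearest to S1pr3 were Asb4 (0.132) and Col26a1 (0.144), and those nearest to Lpar1 were Sfrp1 (0.152), a secreted Wnt antagonist, and Wnt5a (0.182), a non-canonical Wnt ligand. Sfrp1 had 3149 ± 405 normalised reads (SD, n = 3) in wt, 6354 ± 595 under the null label, 1153 ± 50.8 in control, 1260 ± 56.6 in JTE and 992 ± 44.5 in JTE + CTGF explants. Lpar1 shows the same order of groups on its own scale. Col26a1, a collagen gene, had 1447 ± 161, 2058 ± 87.5, 650 ± 91.1, 383 ± 29.2 and 334 ± 5.12 normalised reads in the same order of groups, the sequence seen for S1pr3.

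S1pr2 lay nearest to Unc119 (0.138) and Dennd2a (0.148), S1pr1 to Pcna-ps2 (0.113) and C1qtnf6 (0.122), and Lpar4 to Ptbp2 (0.0969) and Efna2 (0.101). The flat profiles of Lpar2, which varied by 0.139 itself, and Lpar6, which varied by 0.169, lay near Trp53bp2 (0.0487) and Rps6ka3 (0.0601), and near Arf4 (0.0712) and Cmpk1 (0.0726). S1pr4 lay nearest to Pik3r6 (0.346) and Gm6517 (0.404), at larger distances and with few reads.

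**Figure D5:**
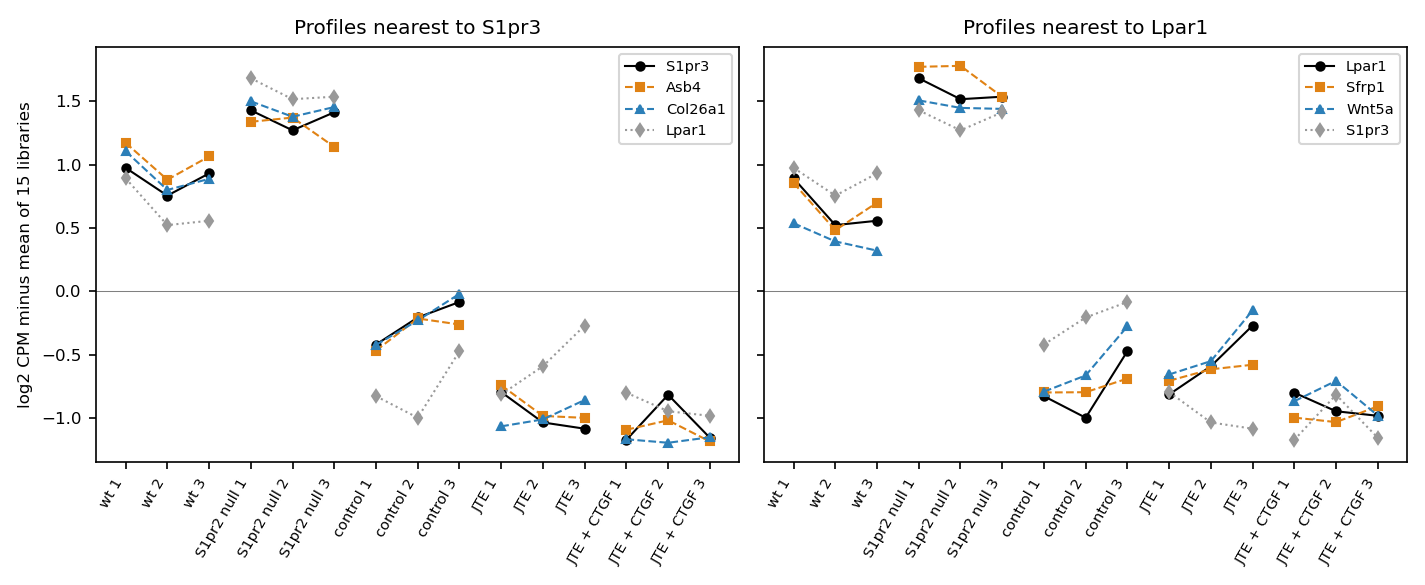
Log2 CPM minus the mean of 15 libraries (vertical axis) by library for S1pr3 and Lpar1 (black), their 2 nearest genes (orange and blue) and the other of these receptors (grey). All stand above their mean in fresh pancreata and below it in cultured explants. Lpar1 lies below S1pr3 in every wt and control library, JTE 1 and JTE + CTGF 2. It lies above S1pr3 in every library labelled S1pr2 null, JTE 2, JTE 3, JTE + CTGF 1 and JTE + CTGF 3.

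The counts below for genes that act with the receptors are to be read beside the share of all genes that passed. This share was 25.8% under the null label, 52.2% in JTE explants, 30.4% with CTGF against JTE, 61.1% with CTGF against control and 57.8% in control against wt. The G protein alpha subunit list holds 12 genes, all tested. Under the null label 1 rose and 3 fell (median 0.03 beside -0.01 for all genes), and those that fell were the Gi/o class members Gnao1 (by 0.85 ± 0.08), Gnai1 (by 0.68 ± 0.09) and Gnaz (by 0.43 ± 0.10). In JTE explants 6 rose and 4 fell (median 0.10 beside 0.0), 10 of 12 where 52.2% of all genes passed. Here Gnai1 rose by 0.52 ± 0.09 and Gna14, of the Gq class, fell by 1.47 ± 0.24, whereas Gna15, a Gq class subunit of blood cells, had 2.61 ± 1.39 normalised reads against 30.02 ± 1.66 in control. With CTGF against JTE 3 rose and 2 fell, with CTGF against control 4 rose and 5 fell, and in control against wt 7 rose and 1 fell.

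Of the 8 genes of the RhoA arm below G12/13, 0 rose and 1 fell under the null label, the exchange factor Arhgef1 by 0.17 ± 0.06. In JTE explants 3 rose and 3 fell (median 0.00 beside 0.0), 6 of 8 where 52.2% of all genes passed. Arhgef12 rose by 0.43 ± 0.05 and the kinase Rock2 by 0.36 ± 0.06, while the GTPase Rhob fell by 0.51 ± 0.06. Against JTE alone CTGF was accompanied by 0 rising and 4 falling genes, among them Arhgef12 (by 0.50 ± 0.05) and Arhgef11 (by 0.43 ± 0.05). Against control 0 rose and 2 fell with CTGF, and in control against wt 3 rose and 0 fell, led by Rhob with 1.16 ± 0.07.

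Of the 8 genes of receptor desensitisation 7 were tested, and Cd69 had at most 3 reads in any library. Arrb1, a beta-arrestin that takes up activated receptors, rose by 0.27 ± 0.07 under the null label, the only call of the list there. It fell by 0.76 ± 0.07 in JTE explants and by 1.02 ± 0.07 in JTE + CTGF explants against the same control libraries. In JTE explants 1 rose and 1 fell in all, 2 of 7 where 52.2% of all genes passed. With CTGF against JTE 2 rose and 2 fell, with CTGF against control 2 rose and 1 fell, and in control against wt 4 rose and 1 fell.

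Of the 12 RGS proteins, which switch off G protein alpha subunits, 11 were tested. Under the null label 2 rose, Rgs5 (by 0.44 ± 0.08) and Rgs12 (by 0.38 ± 0.07), and 0 fell. In JTE explants 2 rose and 6 fell (median -0.26 beside 0.0), 8 of 11 where 52.2% of all genes passed. Rgs1 had 5.98 ± 0.62 normalised reads against 57.6 ± 23.8 in control and Rgs14 had 4.08 ± 2.91 against 20.03 ± 3.98, both at low counts, and Rgs16 fell by 1.24 ± 0.09. With CTGF against JTE 1 rose and 0 fell, Rgs2 by 0.56 ± 0.11. With CTGF against control 3 rose and 5 fell, and in control against wt 6 rose and 1 fell, with Rgs16 at 1.65 ± 0.09 and Rgs4 at 1.56 ± 0.07.

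The 13 genes of ligand supply make, export, carry or degrade S1p or LPA. Under the null label 1 rose, the S1p lyase Sgpl1 (0.32 ± 0.07), and 2 fell, the S1p phosphatases Sgpp2 (by 0.61 ± 0.10) and Sgpp1 (by 0.51 ± 0.06). In JTE explants 6 rose and 4 fell, 10 of 13 where 52.2% of all genes passed. The S1p exporter Spns2 fell by 0.83 ± 0.13, whereas Plpp3 rose by 0.46 ± 0.07 and Sgpp1 by 0.43 ± 0.06. With CTGF against JTE 3 rose and 2 fell. Plpp1 rose by 0.45 ± 0.07 and the kinase Sphk1 by 0.31 ± 0.09, whereas Abcc1 fell by 0.41 ± 0.06. With CTGF against control 6 rose and 2 fell, and in control against wt 8 rose and 4 fell. In the latter the largest called changes were falls at low counts. Mfsd2b fell by 2.20 ± 0.40 (5.88 normalised reads in control against 27.4 in wt) and Apom by 1.33 ± 0.48 (6.21 against 15.9). Enpp2, which encodes autotaxin, the enzyme that makes LPA outside cells, rose by 0.96 ± 0.11.

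Lpar6 lies inside the Rb1 gene on the opposite strand, at chr14:73237891-73240358, and 16.5% of its 2468 exon bases overlap Rb1 exons, so its counts are uncertain if strand was not used. S1pr3 spans chr13:51408618-51422797 and Lpar1 chr4:58435255-58553898. S1pr1 spans chr3:115710433-115715055, S1pr4 chr10:81497745-81500132, Lpar2 chr8:69822429-69831102 and Lpar4 chrX:106920625-106933900, all in mm10, and none of these shares exon bases with another gene.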

How the data were processed

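The authors aligned single-end, strand-specific poly(A) reads to mm10 with GSNAP and deposited a raw read count per Ensembl gene, made with featureCounts 1.4.6 from uniquely aligned reads. Whether strand was used in counting was not stated. All 15 columns were mapped to samples by title, and 0 columns were left out. Total counts were 11402804 to 13828737. Symbols came from GENCODE M21 and matched 24750 of 25292 IDs. Replicates were independent pools by the methods, and the labels give no batch or date.

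Counts were tested with edgeR 4.0.16 in R 4.3.3 by the quasi-likelihood F-test (TMM, filterByExpr, all 15 libraries, 1 coefficient per group), with Benjamini-Hochberg adjustment over 16245 genes. The SE is the log2 fold change divided by the square root of F. The script was tested on simulated data. RPKM used the exon length of the table and the TMM library size, and log2 CPM a prior count of 2. Alternatives were DESeq2 1.42.0, other scaling and filters, a replicate block, fewer libraries and leaving out each library. Python 3.11.15 with scipy 1.17.1 and matplotlib 3.10.9 served for the rest.

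Named genes were the receptors, up to 3 genes per list and comparison with the largest called change and no overlap between groups, the 2 nearest tested genes on each side of S1pr2 and the 2 most similar genes per receptor. The receptors and lists were chosen with earlier results of these data known. Floors cover counting error only, whereas SE and SD include the spread between libraries of a group.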

Additional observations from a re-analysis of the deposited data

Results flagged for a closer look

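The response to JTE013 in explants and the difference between the libraries labelled S1pr2 null and wt differed for 6 of the 8 receptors, by an interaction contrast in edgeR's quasi-likelihood test (the JTE response minus the genotype difference). Of all genes tested 42.9% passed this test and 21.5% were lower, as all 6 receptors were. S1pr3 differed by -1.22 ± 0.14 (adjusted p = 3.66e-06), having fallen with JTE013 and risen under the null label. The values were -0.79 ± 0.10 for S1pr2 (adjusted p = 1.11e-05), -0.71 ± 0.14 for S1pr1 (adjusted p = 0.000543), -0.70 ± 0.19 for Lpar1 (adjusted p = 0.00664) and -0.47 ± 0.14 for Lpar4 (adjusted p = 0.0108). That of Lpar6 was -0.33 ± 0.12 (adjusted p = 0.0376) and was lost in 7 of 15 fits that left out 1 library, those without wt 2, wt 3, S1pr2 null 3, control 1, control 2, JTE 2 or JTE 3 (adjusted p up to 0.115). Lpar2 (-0.01 ± 0.09) and S1pr4 (-1.27 ± 0.74) did not pass. The contrast sets whole fresh pancreata beside cultured dorsal buds, so tissue, age and culture cannot be told apart from antagonist and genotype.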

How the results depend on the processing

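The number of receptors called was within 1.5 times the reported one under RLE size factors, no filter on low counts, DESeq2, the replicate block and fits of only the 6 libraries compared. With 1 library left out it ranged from 4 to 4 under the null label, 3 to 4 for JTE, 2 to 4 for CTGF against JTE, 4 to 4 for CTGF against control, 4 to 5 for control against wt and 5 to 6 for the interaction. By the criterion of the study (adjusted p of at most 0.1, mean of 100 reads, fold below 0.6 or above 1.6), which adds a minimum fold, 2, 1, 0, 1 and 3 receptors remained in the 5 comparisons, as its construction gives. With read counts in place of RPKM the S1pr2 share in control exceeded wt by 11.7 percentage points, since the receptors differ in length.

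Of single receptors, the JTE response of Lpar2 turned to -0.0009 with RLE size factors and its interaction to 0.0027 without the filter, both beside SEs over 0.06. The CTGF rise of S1pr2 against JTE was 0.24 (adjusted p = 0.0607) in the 6 libraries alone, and the CTGF difference of Lpar1 passed without the filter (-0.35, adjusted p = 0.0259). The signs of differences that did not pass turned in some fits without 1 library. Under the null label these ranged from -0.0044 to 0.0628 for Lpar2, -0.0627 to 0.0465 for Lpar6 and -0.2285 to 0.3431 for S1pr4. For JTE they ranged from -0.0104 to 0.0611 for Lpar2 and -0.019 to 0.1029 for S1pr2. With CTGF they ranged from -0.197 to 0.0213 for S1pr3 against JTE, and against control from -0.2712 to 0.0034 for Lpar1, -0.8127 to 0.2531 for S1pr4 and -0.0336 to 0.101 for Lpar4. The interaction of Lpar2 ranged from -0.0409 to 0.0331, and the S1pr2 share with CTGF minus JTE from -0.2644 to 4.413 percentage points. The Lpar6 interaction was lost without the filter (adjusted p = 0.0708), in DESeq2 (adjusted p = 0.0546) and with the replicate block (-0.33, adjusted p = 0.0536), and the cause was not tested. The replicate block changed no other receptor's call. Correlations of deviations ranged from -0.108 to 0.248 over 30 pairs of the same number and from -0.241 to 0.165 over 60 other pairs. The highest, 0.248, was between control 3 and JTE 3. Both of these libraries also lay above their group means in Lpar1, by 0.29 and 0.29. Whether libraries of the same number shared more than the number was not tested further.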
